A study of Homo sapiens with 6 samples.

Results

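TEN1 and the genes whose products work with it at chromosome ends were followed through 6 RNA libraries of NB4 cells, an established human acute promyelocytic leukemia line. The set held 9 genes of the 52992 genes obtained by summing transcripts: TEN1, STN1 and CTC1, which encode the CST complex, TERF1, TERF2, TINF2, ACD and POT1, which encode 5 of the shelterin subunits, and CDK3, the gene directly downstream of TEN1. TEN1 was chosen by its low level in one of the groups described here, so its values and those of its transcripts are given as a description, without a test, and the other 8 genes were chosen as its partners or neighbour. All 9 genes passed the filter on low counts, as did 18514 genes in all.

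All cells carried Cas9 and a single guide RNA (sgRNA) expressed under doxycycline control, and all were given doxycycline at 1 µg/ml for 7 days and then kept without it for 2 days before RNA was taken. In the group called LacZ the sgRNA was directed at a bacterial gene that human cells lack, and the genotype label was WT. In the groups sg1 and sg5, labelled ARID1A-deficient, 2 different sgRNAs were directed at ARID1A, a subunit of the SWI/SNF chromatin remodelling complex. Each group had 2 replicates, and cells were sorted as pools carrying both fluorescent reporters rather than grown from a clone. The labels do not say whether replicates were separate cultures, so p-values measure only the spread between these libraries, which may be technical.

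The libraries held 46131178 to 54843745 estimated counts. ARID1A itself had 8164 and 9617 counts in the LacZ pair, 10671 and 8493 in the sg1 pair and 5805 and 7338 in the sg5 pair, so its RNA was not lower in sg1 than in LacZ, and an RNA level does not show whether a reading frame was cut. The main axis of a principal component analysis (34.4% of the variance) set sg1 replicate 1 and sg5 replicate 2 apart from the other 4 libraries. The promyelocyte marker MPO had 630217 to 848367 counts per library, and the granule genes PRTN3, AZU1 and CTSG had 13815 to 30322, 7497 to 11449 and 2880 to 4893, with 3273 to 4383 for the myeloid marker CD33. ELANE, another granule gene of this stage, had 1 to 9, and how the authors' transcript set represents it was not tested, so this low value is not read as absence. The red cell genes HBB and HBA1 were at 0 in every library. Of the lymphoid markers, CD3E, CD2 and MS4A1 had at most 4 counts in any library, CD3D had 244 to 366, and CD79A 233 to 551.

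Telomeres end in a single-stranded, G-rich overhang. Shelterin covers the repeats: TERF1 and TERF2 bind the double strand, POT1 with ACD binds the overhang, and TINF2 bridges them. CST binds single-stranded DNA, brings DNA polymerase alpha-primase to the overhang to fill in the C-rich strand and limits extension by telomerase. CTC1 is its large subunit, STN1 its middle subunit, and TEN1 its smallest, which binds STN1 and steadies the complex.

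TEN1 lies on the plus strand of chromosome 17, at 75979220 to 76000586 (GRCh38, GENCODE 29). CDK3, a cyclin-dependent kinase gene, spans 76000906 to 76005999 and starts 319 bases beyond the end of TEN1-201. The annotation joins both in a read-through gene, TEN1-CDK3, at 75979231 to 76005999. The reading frame of TEN1 runs through exons 2 to 4 of TEN1-201, the transcript of 994 bases that carried most of the TEN1 counts in LacZ, and has 123 codons before the stop. Its coding exons are shown because every comparison of TEN1 below turns on which transcripts hold them. They lie at chr17:75986193-75986284, chr17:75991466-75991623 and chr17:76000141-76000262. The capitals mark the start codon in exon 2, the 46 bases of exon 3 that TEN1-204 lacks, and the stop codon in exon 4:
TEN1-201 exon 2: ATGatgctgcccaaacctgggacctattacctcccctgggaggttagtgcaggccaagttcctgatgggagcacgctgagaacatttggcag
TEN1-201 exon 3: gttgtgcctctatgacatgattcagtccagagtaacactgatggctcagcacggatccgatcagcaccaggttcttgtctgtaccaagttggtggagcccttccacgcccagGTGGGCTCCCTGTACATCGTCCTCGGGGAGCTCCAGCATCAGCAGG
TEN1-201 exon 4: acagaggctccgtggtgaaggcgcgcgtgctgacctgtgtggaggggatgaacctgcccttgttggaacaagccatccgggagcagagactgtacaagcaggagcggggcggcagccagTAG
The whole exon 3 with its last 46 bases was in TEN1-201, TEN1-CDK3-201 and TEN1-CDK3-202 only, among the 11 transcripts of TEN1, CDK3 and TEN1-CDK3 in the tables. The junctions that set the shorter transcripts apart are shown next, with the bases of the downstream exon in capitals. TEN1-201 joins base 75991623 to base 76000141, TEN1-204 joins base 75991577 to the same exon 4, and TEN1-203 joins an extra exon of 121 bases, ending at base 75985012, to base 75986187:
TEN1-201 junction: tccagcatcagcaggACAGAGGCTCCGTGG
TEN1-204 junction: cccttccacgcccagACAGAGGCTCCGTGG
TEN1-203 junction: ctttgggaggccaagGAGCCCATGATGCTG
The TEN1-204 and TEN1-203 junctions each occurred in 1 annotated transcript, and the TEN1-201 junction in 4, of which 3 are among the 11.

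TEN1 was lower in sg5 than in either other group. The gene had 692 and 857 counts in the LacZ pair, 914 and 870 in the sg1 pair and 118 and 62 in the sg5 pair. Both sg5 libraries lay below all 4 others, and both sg1 libraries lay above both LacZ libraries. In RNA from pooled cells, fewer cells with TEN1 RNA and less TEN1 RNA per cell cannot be told apart. Scaled to depth, the mean was 15.1 CPM for LacZ, 18.8 for sg1 and 1.87 for sg5. CPM scales each count to the library's summed counts of the tested genes, adjusted by the TMM normalization factor of the fit. Per length, in TPM (transcript copies as a share of all transcripts, scaled for length), TEN1 stood at 25.1 ± 3.25 for LacZ, 31.3 ± 4.72 for sg1 and 4.21 ± 1.48 for sg5 (SD, n = 2 each). The fitted log2 fold change was -3.01 (SE 0.31) for sg5 against LacZ and 0.32 (SE 0.27) for sg1 against LacZ, and sg1 was higher than sg5 by 3.33. With an offset for transcript length the sg5 value was -2.52, and without sg5 replicate 1 it was -3.60.

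**Figure D1:**
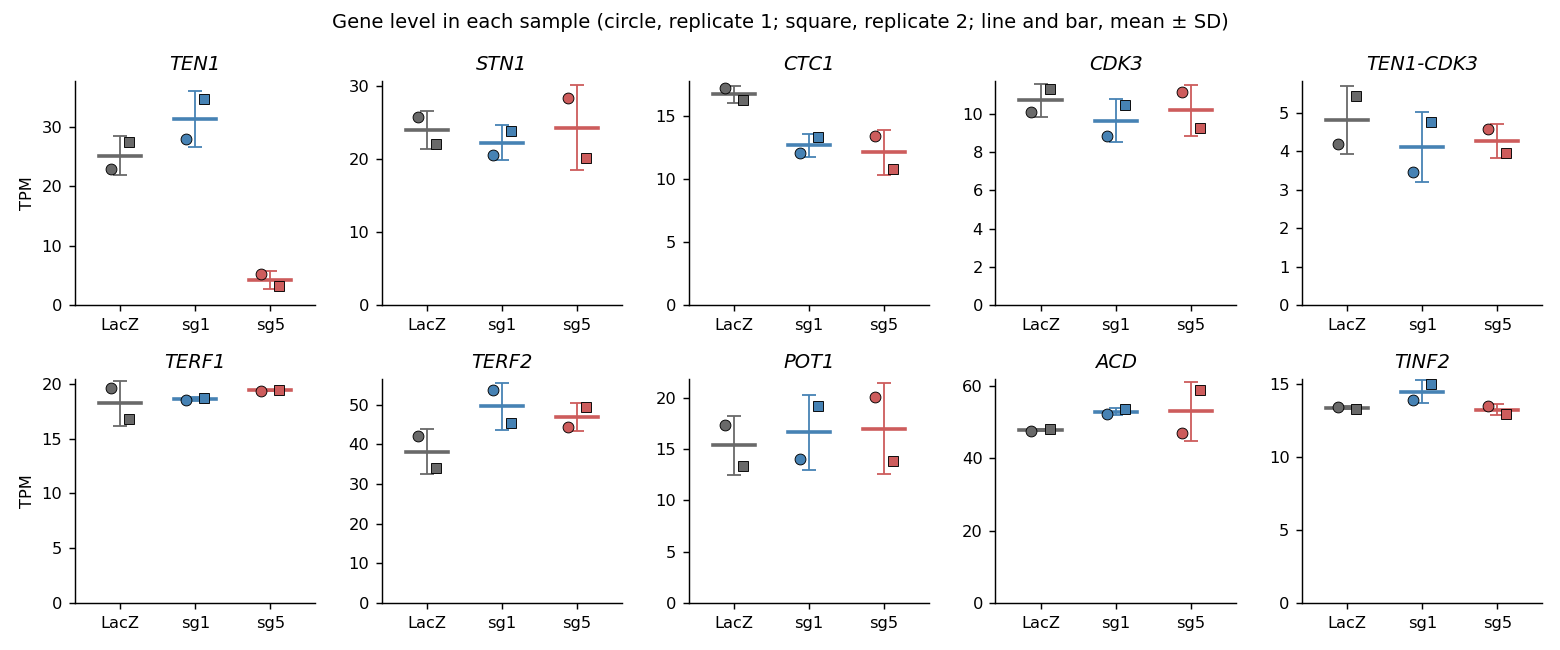
Gene level in TPM (vertical axis from 0) of the 9 genes and TEN1-CDK3 in LacZ, sg1 and sg5. Circles are replicate 1, squares replicate 2, and the line with its bar is the mean ± SD of 2 libraries: TEN1 has a mean of 4.21 in sg5 beside 25.1 in LacZ, and no other panel shows a gap of that size.

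Among the 5 TEN1 transcripts the difference in estimated counts lay mainly in TEN1-201. TEN1-201 had 614 and 786 estimated counts in the LacZ pair, 832 and 783 in the sg1 pair and 52.3 and 11.0 in the sg5 pair. This was 88.6% and 91.7% of the gene's counts in the LacZ pair, 91.0% and 89.9% in the sg1 pair and 44.4% and 17.9% in the sg5 pair. Its fitted log2 fold change was -4.34 (SE 0.73) for sg5 against LacZ and 0.33 (SE 0.62) for sg1.

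The shorter TEN1 transcripts were few in every library and overlapped between groups. TEN1-205, which has an extra exon ahead of exon 2 and stops within exon 3, had 42.7 and 32.5 estimated counts in the LacZ pair, 19.8 and 47.4 in the sg1 pair and 26.5 and 38.9 in the sg5 pair. In sg5 replicate 2 it therefore made up 63.0% of the TEN1 counts. TEN1-204, with the shortened exon 3, had 21.6 and 30.5 in the LacZ pair, 47.7 and 25.5 in the sg1 pair and 29.7 and 10.2 in the sg5 pair. TEN1-203 had between 1.53 and 14.8 counts in the 6 libraries. TEN1-202, annotated as a retained intron, was above 0 in LacZ replicate 1 and sg1 replicate 2 alone, with 2.55 and 11.8 counts. The log2 fold changes of TEN1-205, TEN1-204 and TEN1-203 in sg5 against LacZ were -0.12, -0.25 and -0.72, with standard errors of 0.59, 0.71 and 1.27, so the lower level of TEN1 in sg5 was carried by the transcript with the full reading frame.

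The read-through transcript TEN1-CDK3-201 holds the full TEN1 reading frame too, though the annotation lists it as a retained intron. It has 9 exons and 3897 bases and contains TEN1-201 except for the first 11 bases. TEN1-CDK3-201 had 631 and 824 estimated counts in the LacZ pair, 540 and 635 in the sg1 pair and 645 and 622 in the sg5 pair, and the groups overlapped. As a gene, TEN1-CDK3 stood at 4.81 ± 0.88 TPM for LacZ, 4.11 ± 0.91 for sg1 and 4.26 ± 0.45 for sg5 (SD, n = 2 each), with a log2 fold change of -0.14 for sg5 (95% interval -0.60 to 0.33, adjusted p 0.879) and -0.20 for sg1 (95% interval -0.67 to 0.27, adjusted p 0.993). TEN1-CDK3-202 had 15.9 counts in LacZ replicate 1 and under 1 count in the other 5 libraries.

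**Figure D2:**
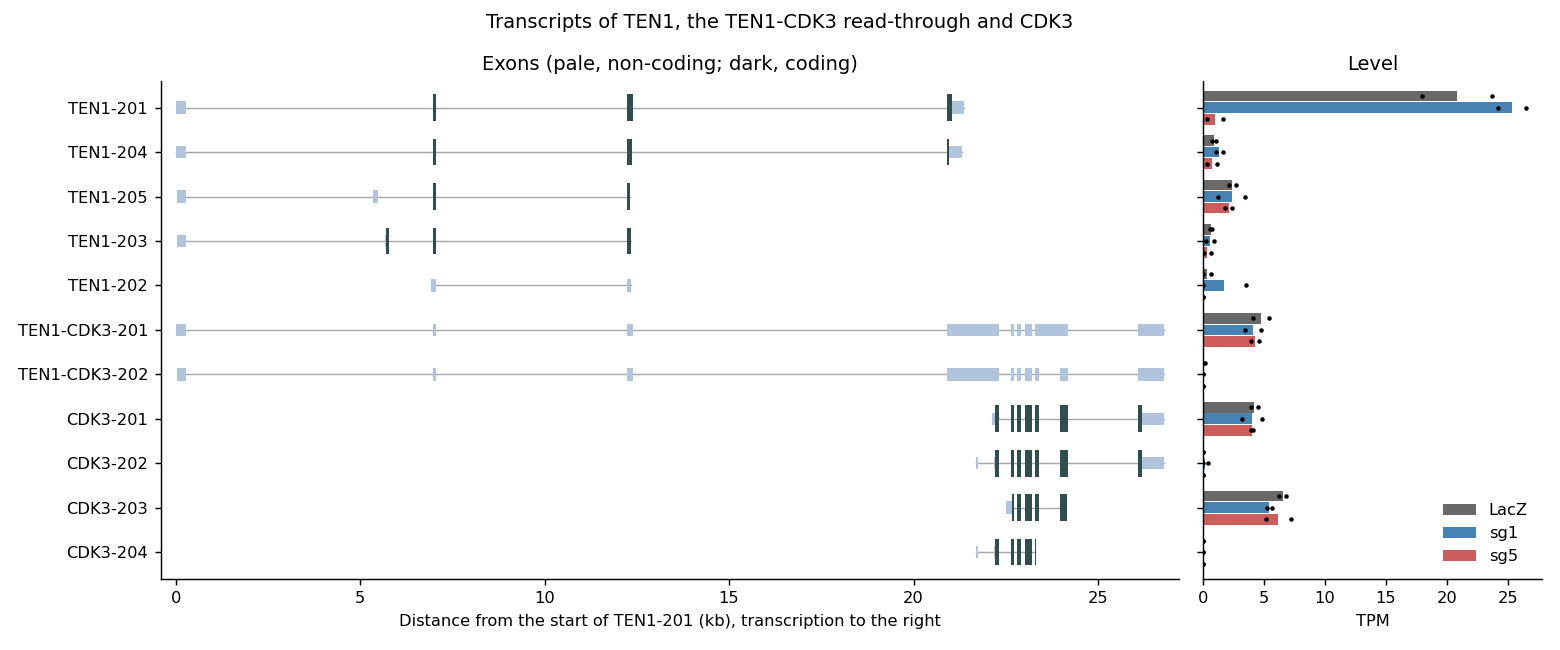
Left, exons of the 11 transcripts against distance from the start of TEN1-201 in kb, with coding parts dark. Right, mean TPM of each transcript per group as bars, with a dot for each of the 2 libraries: the sg5 bar is short against LacZ and sg1 for TEN1-201, while the bars of TEN1-CDK3-201, CDK3-201 and CDK3-203 lie close together.

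Of the 11 transcripts, 3 hold the full reading frame. Their summed level was 22.2 and 29.1 TPM in the LacZ pair, 27.7 and 31.3 in the sg1 pair and 6.26 and 4.27 in the sg5 pair. Another annotated transcript has the TEN1-201 junction but is not among the 11, so this sum leaves it out. The read-through made up 18.9% and 18.7% of that sum in the LacZ pair, 12.5% and 15.2% in the sg1 pair and 73.2% and 92.5% in the sg5 pair. In sg5, then, most of this sum was assigned to TEN1-CDK3. TEN1-CDK3-201 and TEN1-CDK3-202 are annotated as retained introns, while the gene TEN1-CDK3 is annotated as protein-coding.

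**Figure D3:**
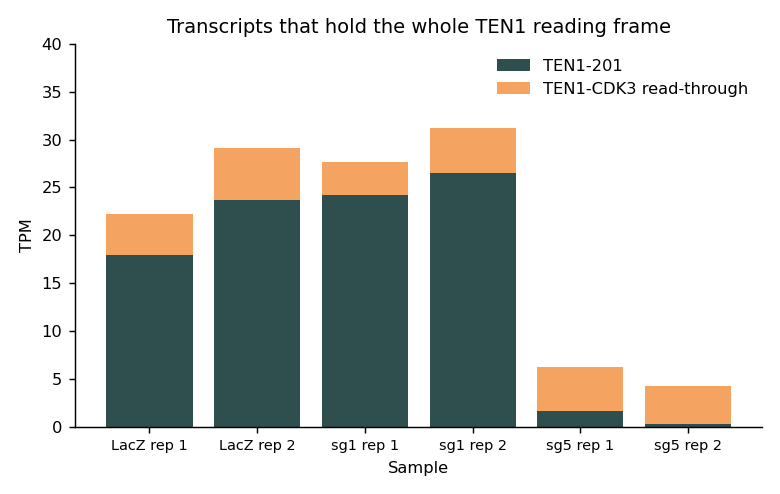
TPM (vertical axis from 0) of those transcripts among the 11 that hold the whole TEN1 reading frame, in each of the 6 libraries. Bars are stacked as TEN1-201 (dark) and the read-through (light). The light part is 3.46 to 5.44 TPM in all libraries, and the dark part is 1.68 and 0.32 in sg5 against 18.0 to 26.5 elsewhere.

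How far these transcripts can be told apart bears on every value above. Of the 964 stretches of 31 bases in TEN1-201, 953 (98.9%) also occur in TEN1-CDK3-201, and none is particular to TEN1-201 in GENCODE 29. TEN1-CDK3-201 has 514 of 3867 such stretches to itself, TEN1-204 has 29 of 832, TEN1-205 has 147 of 525 and TEN1-203 has 127 of 533. The division of reads between TEN1-201 and the read-through was therefore made by the quantification model, and the error of that division was not used here. The summed counts of the locus do not depend on it: TEN1, CDK3 and TEN1-CDK3 together had 1730 and 2112 counts in the LacZ pair, 1805 and 1877 in the sg1 pair and 1145 and 1066 in the sg5 pair. Both sg5 libraries again lay below the other 4, and the log2 fold change of the sum was -0.72 for sg5 against LacZ. In CPM the sum fell by 14.6 between LacZ and sg5, of which TEN1 gave 13.2, TEN1-CDK3 1.30 and CDK3 0.13. So CDK3 and TEN1-CDK3 did not gain what TEN1 lost against LacZ. Against sg1 the CPM difference in sg5 was -16.95 for TEN1, 0.54 for TEN1-CDK3 and 0.19 for CDK3.

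CDK3, which shares its exons with the read-through but none with the TEN1 gene, had 391 and 430 counts in the LacZ pair, 351 and 372 in the sg1 pair and 382 in each sg5 library. The groups overlapped per length, at 10.7 ± 0.85, 9.65 ± 1.14 and 10.2 ± 1.34 TPM (SD, n = 2 each). Its log2 fold change was -0.06 for sg1 (95% interval -0.49 to 0.37) and -0.02 for sg5 (95% interval -0.45 to 0.40). CDK3-201 and CDK3-203 held its counts, with 191 to 257 and 128 to 173 in the 6 libraries, and CDK3-204 was at 0 in all of them.

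The question of whether the partners of TEN1 responded was asked of 8 genes in 3 contrasts. At a false discovery rate (FDR) of 0.1, 0 of 8 were called in sg1 against LacZ, 0 of 8 in sg5 against LacZ and 0 of 8 in sg1 against sg5. Calls were rare among all genes: 0.0378%, 0.0972% and 0.0054% of the 18514 genes were called by the same edgeR fit. At an unadjusted p under 0.05 there were 1, 1 and 0 partners, beside 4.15%, 7.47% and 1.38% of all genes. The median log2 fold change of the 8 was -0.01 in sg1 and 0.03 in sg5, and that of all genes was 0.00 and -0.01. Between sg1 and sg5 the partners ranged from -0.17 (POT1) to 0.07 (TINF2), in the contrast where TEN1 differed by 3.33. The 2 contrasts with LacZ share the LacZ libraries.

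In CST, the other subunits gave no call. STN1 had 1314 and 1091 counts in the LacZ pair, 1049 and 1037 in the sg1 pair and 1304 and 1020 in the sg5 pair. The groups overlapped, at 24.0 ± 2.63, 22.3 ± 2.38 and 24.3 ± 5.82 TPM, and the log2 fold change was -0.08 for sg1 (95% interval -0.48 to 0.32, adjusted p 0.993) and 0.04 for sg5 (95% interval -0.36 to 0.44, adjusted p 0.963). CTC1 had 1024 and 1095 counts in the LacZ pair, 770 and 897 in the sg1 pair and 804 and 873 in the sg5 pair. In counts and in TPM all 4 ARID1A-deficient libraries lay below both LacZ libraries, at 12.7 ± 0.89 TPM in sg1 and 12.1 ± 1.81 in sg5 beside 16.7 ± 0.69 in LacZ. In CPM sg1 overlapped LacZ, with 20.2 in sg1 replicate 2 and 19.4 in LacZ replicate 1. The log2 fold change of CTC1 did not pass the test, at -0.22 in sg1 (SE 0.17, adjusted p 0.993) and -0.26 in sg5 (SE 0.17, adjusted p 0.717). With the length offset these values were -0.36 and -0.42, with adjusted p of 0.997 and 0.668.

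The CTC1 counts were spread over 13 transcripts, of which CTC1-202, annotated as a target of nonsense-mediated decay, held the most. CTC1-202 had 442 and 455 estimated counts in the LacZ pair, 327 and 406 in the sg1 pair and 288 and 348 in the sg5 pair. CTC1-201, annotated as protein-coding, had 246 and 355 in the LacZ pair, 221 and 280 in the sg1 pair and 295 and 330 in the sg5 pair. In sg5 against LacZ the log2 fold change was 0.15 (SE 0.30) for CTC1-201 and -0.41 (SE 0.23, adjusted p 0.981) for CTC1-202. The edgeR test called neither. The length of CTC1-201 was 4024 bases in the tables and 7072 in GENCODE 29, so its level per length follows the authors' transcript model.

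In shelterin, TERF2 stood out among the partners without being called. TERF2 had 2619 and 2075 counts in the LacZ pair, 3668 and 2568 in the sg1 pair and 2893 and 3455 in the sg5 pair. Per length this was 42.1 and 34.1 TPM in the LacZ pair, 53.7 and 45.5 in the sg1 pair and 44.5 and 49.4 in the sg5 pair, so all 4 ARID1A-deficient libraries lay above both LacZ libraries. The log2 fold change was 0.52 in each group (SE 0.15), with adjusted p of 0.781 in sg1 and 0.503 in sg5, and 95% intervals of 0.18 to 0.86 and 0.17 to 0.86 before adjustment. TERF2 did not separate sg1 from sg5, which differed by 0.00 (95% interval -0.34 to 0.35). It was called when no filter on low counts was applied, with adjusted p of 0.0476 in sg1 and 0.0326 in sg5. That setting called 345 and 632 of all genes, beside 7 and 18 in the main fit. Without the 2 libraries that lay apart, which leaves sg5 with 1 library, the log2 fold change of TERF2 in sg5 was 0.44.

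The transcript TERF2-201 carried most of the TERF2 counts. TERF2-201 had 1733 and 1283 estimated counts in the LacZ pair, 2600 and 1919 in the sg1 pair and 2139 and 2318 in the sg5 pair, with log2 fold changes of 0.70 and 0.66 and adjusted p of 1 and 0.981. TERF2-211, the next in counts, ranged from 386 to 754 and overlapped between groups, with log2 fold changes of 0.01 and 0.08. Of the 87 transcripts of the 8 partners, 56 were tested and 0 were called in each contrast. All 78622 transcripts tested gave calls at 0%, 0% and 0%, so the transcript fit called nothing anywhere. At an unadjusted p under 0.05 it had 2, 5 and 1 partner transcripts, and 2371, 3703 and 2258 of all transcripts.

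The other shelterin genes had log2 fold changes of at most 0.15 in size. TERF1 had 1446 and 1343 counts in the LacZ pair, 1348 and 1296 in the sg1 pair and 1321 and 1504 in the sg5 pair, with log2 fold changes of 0.05 and 0.10. TINF2 had 901 and 910 counts in the LacZ pair, 951 and 779 in the sg1 pair and 805 and 888 in the sg5 pair, with 0.05 and -0.02. Per length, TERF1 stood at 18.2 ± 2.05, 18.6 ± 0.17 and 19.4 ± 0.03 TPM, and TINF2 at 13.4 ± 0.10, 14.5 ± 0.78 and 13.2 ± 0.38, in the order LacZ, sg1 and sg5 (SD, n = 2 each).

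ACD, which carries POT1 onto shelterin, had 2837 and 2802 counts in the LacZ pair, 2923 and 2541 in the sg1 pair and 2337 and 3327 in the sg5 pair. POT1 had 1587 and 1172 in the LacZ pair, 1082 and 1188 in the sg1 pair and 1423 and 1201 in the sg5 pair. The log2 fold changes were 0.07 and 0.08 for ACD and -0.15 and 0.02 for POT1. The widest of their 95% intervals, POT1 in sg1, ran from -0.58 to 0.28, so changes of that size were not detectable with 2 replicates. The direction of POT1 in sg1 also turned to 0.15 with the length offset.

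**Figure D4:**
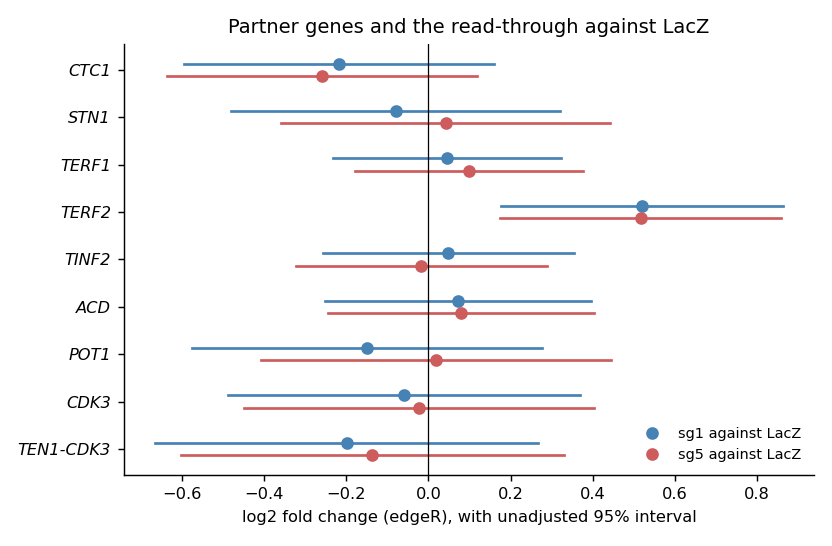
log2 fold change (horizontal axis) of the 8 partners and TEN1-CDK3 in sg1 (blue) and sg5 (red) against LacZ, with unadjusted 95% intervals from the edgeR fit. Intervals of TERF2 lie above 0 in both groups, at 0.52, and all others cross 0.

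The order of the 9 genes per length differed between LacZ and sg5 in the places of TEN1 and CTC1. In LacZ the order by mean TPM was ACD (47.8), TERF2 (38.1), TEN1 (25.1), STN1 (24.0), TERF1 (18.2), CTC1 (16.7), POT1 (15.4), TINF2 (13.4) and CDK3 (10.7). TEN1 and STN1 overlapped between libraries and could not be ranked, and TERF1, CTC1, POT1 and TINF2 each overlapped with the next, while all other neighbours in this order were apart. In sg5 the order was ACD (52.9), TERF2 (46.9), STN1 (24.3), TERF1 (19.4), POT1 (17.0), TINF2 (13.2), CTC1 (12.1), CDK3 (10.2) and TEN1 (4.21). CTC1 stood above POT1 and TINF2 in LacZ and below both in sg5, but in sg5 it overlapped with TINF2 and with CDK3, as ACD did with TERF2 and TERF1 with POT1. TEN1 was apart from the other 8 in sg5. TEN1 thus went from the level of STN1, its binding partner in CST, to the lowest of the 9. RNA levels of these subunits do not give the amount of complex.

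Of 44 further genes of telomere biology and of the cell cycle around CDK3, 43 were tested and 0 were called in each contrast, beside the shares of all genes given above. Their median log2 fold change was 0.07 in sg1 and 0.14 in sg5, with 30 and 35 of 43 higher, beside 9315 and 8993 of the 18514 genes tested. At an unadjusted p under 0.05 there were 1 and 6 of the 43, beside 4.15% and 7.47% of all genes. DNA polymerase alpha-primase, which CST recruits, had a median of 0.23 in sg5 over POLA1, POLA2, PRIM1 and PRIM2. PRIM2 had the highest value, 0.64, at only 18 to 32 counts per library, and PRIM1 the lowest, 0.03. In sg5 replicate 2, a library that lay apart, POLA1 and POLA2 had 63.0 and 66.0 CPM, beside 50.4 and 51.9 in replicate 1. The LacZ pair had 47.1 and 49.3 CPM for POLA1, and 45.7 and 54.6 for POLA2. PRIM1 and PRIM2 were not higher in sg5 replicate 2, with 33.5 and 0.59 CPM beside 45.5 and 0.62 in replicate 1. TERF2IP, the sixth shelterin subunit, which binds TERF2, had log2 fold changes of 0.02 in sg1 and 0.04 in sg5.

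Among the telomerase genes, TERT, the reverse transcriptase, had 33.8 ± 0.93 TPM for LacZ, 46.02 ± 0.29 for sg1 and 37.4 ± 0.53 for sg5 (SD, n = 2 each). Its log2 fold change was 0.42 in sg1 (SE 0.15, adjusted p 0.956) and 0.08 in sg5 (adjusted p 0.896), neither of which passed. Without the 2 libraries that lay apart, an alternative that leaves sg1 and sg5 with 1 library each, the TERT value in sg1 was 0.56. DKC1 and RUVBL2, which help assemble telomerase, had the lowest values of this group, at -0.02 in sg1 and -0.05 in sg5, and NOP10 the highest in sg5, at 0.20. TERC, the telomerase RNA, had 4 counts in each LacZ library, 4 and 7 in the sg1 pair and 0 in both sg5 libraries, too few to test. In the group of end processing and replication, FEN1, a flap endonuclease, had the highest value in both groups, at 0.35 and 0.53, with 5609 counts in sg1 replicate 2 and 10091 in sg1 replicate 1. Both libraries that lay apart had the high FEN1 counts, 10091 and 10782, and the part of that separation in the FEN1 values was not tested. In the same group, DCLRE1A, a nuclease of cross-link repair, was lowest in sg1 at -0.24 and SLX4, a nuclease scaffold, in sg5 at -0.27.

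ZBTB48, which encodes a protein that binds telomere repeats, was the lowest of the telomere chromatin genes at -0.28 in sg1 and -0.42 in sg5. ZBTB48 had 2390 and 2827 counts in the LacZ pair, 1771 and 2159 in the sg1 pair and 1711 and 1986 in the sg5 pair. Scaled to depth, sg1 and LacZ overlapped, with 48.6 CPM in sg1 replicate 2 and 45.4 in LacZ replicate 1, and the adjusted p was 0.993 in sg1 and 0.664 in sg5. The highest of that group were ATRX in sg1 at 0.18 and DAXX in sg5 at 0.25, which together form a histone chaperone. DAXX had 109 and 144 CPM in the sg5 pair, beside 107 and 105 in the LacZ pair, so its value lay mainly in sg5 replicate 2. The kinases CDK1 and CDK2, CCNC (cyclin C, which pairs with CDK3) and RB1, a substrate of these kinases, had values of 0.17 to 0.27 in sg1 and 0.24 to 0.29 in sg5, none of them called. Between sg1 and sg5, 11 of the 43 genes were higher in sg1, from -0.20 for DNA2, a helicase and nuclease, to 0.34 for TERT, with a median of -0.05 and 1 gene, TERT, at an unadjusted p under 0.05.

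Around TEN1, 31 annotated genes lay within 250 kb, of which 21 were tested and 0 were called in each contrast. Of the 21, 18 were lower in sg5 than in LacZ, with a median log2 fold change of -0.14. Leaving out CDK3 and TEN1-CDK3, which share reads with each other or with TEN1, 16 of 19 were lower with a median of -0.19. In sg1 10 of 21 were lower with a median of 0.01, and the median of all genes in sg5 was -0.01. Of all 18514 genes tested, 9197 were lower in sg1 and 9520 in sg5, and 0.0972% were called in sg5.

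The lowest neighbour in sg5 was GALR2, a galanin receptor gene, at -1.07 with 3 to 18 counts per library. ZACN, an ion channel gene that overlaps GALR2 and, on the other strand, SRP68 and EXOC7, followed at -0.94, and reads could be split between these genes. ZACN had 247 and 471 counts in the LacZ pair, 515 and 335 in the sg1 pair and 19 and 347 in the sg5 pair, so 1 library set its value. Without sg5 replicate 2, which leaves 1 library in sg5, the log2 fold change of ZACN was -4.11. RNF157, the highest neighbour in sg1 at 0.78, had 1 to 11 counts. Neighbours with many counts had smaller values: H3F3B, a histone gene with 21972 to 31088 counts, had 0.17 in sg1 and 0.19 in sg5, and UNC13D, a granule release factor with 7263 to 9334 counts, had -0.07 and -0.22.

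**Figure D5:**
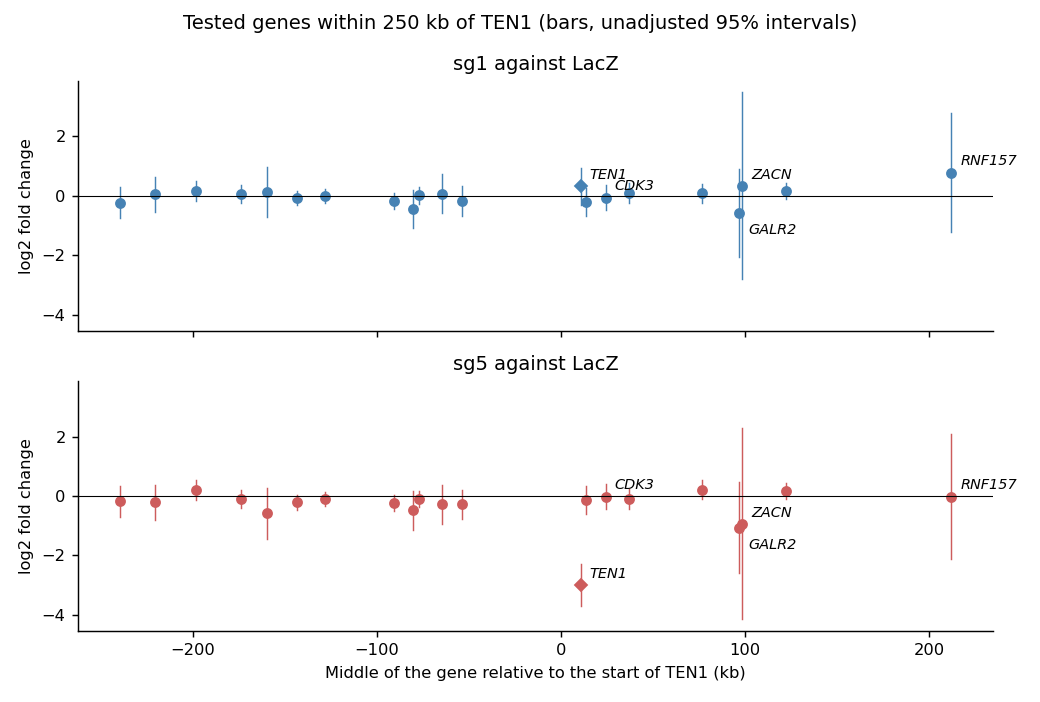
log2 fold change (vertical axis) of TEN1 (diamond) and the tested genes within 250 kb reported here (circles) against the distance of each gene's middle from the start of TEN1 in kb, with unadjusted 95% intervals. In sg5 TEN1 lies at -3.01 while its neighbours lie between -1.07 and 0.20, the lowest being GALR2 and ZACN.

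The tested genes whose log2 CPM followed TEN1 most closely over the 6 libraries were EFR3A, C18orf32, AL031118.1, AC027243.1 and RPS28, with Pearson's r of 0.992, 0.992, 0.988, 0.984 and 0.982. These values are a description over 6 points in 3 groups, of which 1 group holds the low values. Their own changes were far smaller than that of TEN1: EFR3A had a log2 fold change of -0.31 in sg5 and AC027243.1 one of -0.75.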

How the data were processed

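RNA of 6 NB4 libraries was measured by RNA-seq. The authors quantified transcripts with kallisto, as the labels and methods name it, and deposited 1 table per library. Per the file headers each holds transcript and effective length, estimated counts (expected counts) and TPM; the authors' software scaled TPM for length and depth, and left estimated counts unscaled. For these human libraries the transcript set and the strand setting are not given in the sources used here, and the labels name hg19. Each table held 196354 transcripts, of which 181857 (92.62%) matched GENCODE 29 by ID, with 95.4% to 95.5% of counts. Coordinates and sequences come from GENCODE 29 (GRCh38), and none were converted.

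Counts were summed per gene, rounded, and tested with edgeR 4.0.16 in R 4.3.3 (TMM factors, quasi-likelihood, filterByExpr with a minimum count of 10, all 6 libraries, group as the only term, Benjamini-Hochberg FDR of 0.1). Intervals are 95%. Transcripts were tested alike. Two-sided p-values were adjusted over all features. The fit was tested on simulated data. The genes, lists and tests were chosen with earlier results of these data known. Named genes were the 9 members and TEN1-CDK3, tested genes within 250 kb of TEN1, list genes called or at either end of their list in a contrast, the 5 genes most correlated with TEN1 (mean of at least 1 CPM, log2 with a prior count of 2), and ARID1A. UNC13D and H3F3B were picked from the neighbours for their counts. Stretches shared between transcripts were counted with 31 bases, a length chosen here. Alternatives were DESeq2 1.42.0, RLE factors, no filter, a length offset, a replicate block, single contrasts, an FDR of 0.05, left-out replicates, and a summed locus. Without 2 libraries, an alternative chosen after seeing the data, sg1 and sg5 each keep 1 library, assumed to vary like the LacZ pair. Depth limits low genes: intervals cover the spread between libraries only. A few listed genes are not reported here.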

Additional observations from a re-analysis of the deposited data

Results flagged for a closer look

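TEN1 counts lay on opposite sides of LacZ with the 2 ARID1A sgRNAs. Both sg1 libraries (914 and 870 counts) lay above both LacZ libraries (692 and 857), and both sg5 libraries (118 and 62) lay below them, with sg1 above sg5 by 3.33 on the log2 scale. The difference was not tested here because TEN1 was selected on these values. As a description, its log2 fold change in sg1 against LacZ was 0.32 (SE 0.27), and it was 0.06 for TEN1, CDK3 and TEN1-CDK3 summed. For the transcripts with the full reading frame sg1 overlapped LacZ, with 27.7 TPM in sg1 replicate 1 and 29.1 in LacZ replicate 2. No other gene of the 9, and not TEN1-CDK3, had the sg1 libraries on one side of LacZ and the sg5 libraries on the other in log2 CPM. The share of all genes with such an order is not given here, so this is not read as a result about the 9. Groups held 2 libraries each, too few for a check of single libraries that stand out.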

How the results depend on the processing

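The 0 calls among partners held in all 3 contrasts under DESeq2 (smallest adjusted p 0.190), RLE factors, the length offset, an FDR of 0.05, single contrasts and each left-out replicate. With no low-count filter, 1 partner (TERF2) was called in sg1 and 1 in sg5, 1 pathway gene in sg5 (FEN1), and 1 neighbour (ZACN) in sg5 and 1 in sg1 against sg5; this setting called 345, 632 and 86 of all genes, beside 7, 18 and 1, and DESeq2 called 100, 187 and 5. Without both libraries that lay apart, an alternative added after seeing the data, 424, 787 and 215 genes were called: 1 pathway gene in sg1 (TERT), 1 partner (TERF2), 2 pathway genes (HMBOX1, ZBTB48) and 1 neighbour (ZACN) in sg5, and 1 pathway gene (TERT) and 1 neighbour (ZACN) in sg1 against sg5. The cause was not tested. Over left-out replicates, neighbours called in sg5 ranged from 0 to 1.

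Between libraries of the same replicate number, deviations from group means correlated at 0.07 (LacZ and sg1), 0.01 (LacZ and sg5) and -0.21 (sg1 and sg5). With 2 libraries per group, these values cannot show whether the replicate numbers pair the libraries. With the replicate block 0 partners and 0 partner transcripts were called, and 1, 1 and 0 of all genes. TEN1 in sg5 was -3.03 with the block, -2.52 with the length offset, -2.52 with both and -0.72 for the summed locus, and from -3.60 to -2.59 over left-out replicates. For sg1 against sg5 these were 3.35, 2.87, 2.87 and 0.78, and 2.91 to 3.92. TEN1, and the summed locus, stayed below LacZ in sg5 under all of these. The settings reuse the libraries on which TEN1 was selected, so this is a description and not a test.

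Partner values near 0 changed sign. With the length offset, POT1 in sg1 was 0.15 (0.17 with the block too) and TINF2 in sg5 0.034 (0.034 with both). Without both libraries that lay apart, sg1 values were 0.0029 (STN1), 0.0025 (POT1), -0.0034 (TINF2) and 0.070 (CDK3), and sg5 values -0.14 (ACD) and 0.029 (CDK3). Over left-out replicates, sg1 values ranged from -0.18 to 0.026 (STN1), -0.33 to 0.049 (POT1), -0.011 to 0.10 (TERF1), -0.010 to 0.11 (TINF2) and -0.19 to 0.063 (CDK3), and sg5 values from -0.19 to 0.25 (STN1), -0.15 to 0.23 (POT1), -0.14 to 0.28 (ACD), -0.046 to 0.028 (TINF2) and -0.11 to 0.087 (CDK3). None of these was called. Depth limits PRIM2, GALR2, RNF157 and TERC, at under 40 counts.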
